A study of Homo sapiens with 60 samples.

Results

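The comparison described here sets HepG2 cells given 500 µg/mL of a water extract of Aconiti Lateralis Radix Preparata, the processed lateral root of aconite, against HepG2 cells given 20 µg/mL of the same extract. Members were taken from the treatment labels: 3 libraries at 500 µg/mL and 3 at 20 µg/mL, 6 of the 60 libraries in the series. HepG2 is an established human liver cancer line that keeps many hepatocyte functions, including secretion of plasma proteins. All cells were harvested after 24 h. The other libraries are of the same extract at 100 µg/mL, of other plant extracts at 500, 100 and 20 µg/mL, and of cells given the vehicle, labelled 0.1% DMSO. No label says whether the 3 libraries of a dose came from separate cultures, so every p-value measures the spread between libraries, which may be technical. The lower dose is itself a treatment: the comparison is of a high with a low dose, not of treated with untreated cells.

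Liver cells meet plant chemicals through a few well-studied sensors. The aryl hydrocarbon receptor (AhR) is a ligand-gated transcription factor that switches on CYP1A1, a cytochrome P450. NRF2 is a factor held down by KEAP1 and released by electrophiles, and it raises glutathione and quinone-reducing enzymes. ATF4 is a factor translated when amino acids are short or other stresses phosphorylate the initiation factor eIF2, and it raises amino acid transport, asparagine synthesis and tRNA charging.

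Expected counts summed to 28530184, 23124829 and 24458776 at 500 µg/mL, against 23068667, 26978739 and 27740327 at 20 µg/mL. Of the 10 markers of HepG2 all were detected in both groups, summing to 33223 to 34441 CPM (counts scaled to a common library total) at 500 µg/mL and 41941 to 43445 CPM at 20 µg/mL. Marker sums are without TMM scaling, so they depend on the share of other RNAs. Mitochondrial rRNA took 12.4 to 12.8% of counts at 500 µg/mL and 3.14 to 3.29% at 20 µg/mL. With TMM scaling 6 of the 10 markers were called lower and none higher, with a median log2 fold change of -0.16. Of 19 markers of fibroblasts, endothelium, blood and neurons, 14 averaged under 1 CPM in each group. These 19 summed to 274.1 to 295.6 CPM at 500 µg/mL and 216.9 to 236.6 CPM at 20 µg/mL, and of the 8 that were tested 3 rose and 3 fell. Their part in the results was not tested. Among them, COL1A2, DCN, KDR, CD3E and MS4A1 were at 0 in all 6 libraries. Of 14 tested nuclear-retained RNAs and replication histones, which react to RNA quality and library preparation, 6 were higher and 1 lower at 500 µg/mL, with a median log2 fold change of 0.28. Over all tested genes 19.2% were higher and 18.1% lower. MALAT1, a nuclear RNA without protein product, had 675, 599 and 613 CPM at 500 µg/mL, against 463, 380.5 and 377 CPM at 20 µg/mL. The part of RNA quality in the results below was not tested.

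At 500 µg/mL 5989 of 16093 tested genes differed from 20 µg/mL, 37.2% of all, by edgeR's quasi-likelihood test with a Benjamini-Hochberg adjusted p under 0.05 (a "called" gene). Of these 3083 rose (19.2%) and 2906 fell (18.1%). In 47.3% of all tested genes the 3 and 3 libraries did not overlap. The changes were mostly small. Only 372 called genes were at least 2-fold higher and 175 at least 2-fold lower, and the median absolute log2 change of called genes was 0.33. The median log2 change over all tested genes was 0.0012. For a gene of 5 CPM or more the median standard error (SE) was 0.06 on the log2 scale. In the text below, a value such as 1.20 ± 0.05 is the log2 fold change of 500 over 20 µg/mL with its SE from the fitted model, and levels are CPM in each library after TMM scaling.

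The steepest rise was that of IGFBP1 (chr7:45888357-45893668 in GRCh38, ENSG00000146678), which encodes a secreted binding protein of insulin-like growth factors that hepatocytes make when insulin signalling is low. IGFBP1 had 854, 869 and 846 CPM at 500 µg/mL, against 48.8, 48.5 and 47.0 CPM at 20 µg/mL, a log2 change of 4.15 ± 0.10 (adjusted p = 1.1e-34). AQP3, a channel for water and glycerol, had 60.4, 63.3 and 62.7 CPM at 500 µg/mL, against 6.15, 6.73 and 6.38 CPM at 20 µg/mL (3.27 ± 0.07). In both genes the 3 libraries of a dose lay close together and the doses were far apart. GDF15, a cytokine that stressed cells secrete, had 939.5, 932 and 1013 CPM at 500 µg/mL, against 204, 207 and 193 CPM at 20 µg/mL (2.26 ± 0.06). SLC16A6, of the monocarboxylate transporter family, had 102, 103 and 96.0 CPM at 500 µg/mL, against 23.5, 22.1 and 23.5 CPM at 20 µg/mL (2.13 ± 0.06). None of these genes overlapped between the doses, as for 24.6% of all tested genes in the upward direction. Also among the 12 highest were CYP1A1 and SLC7A11, described below, the small GTPase RASD1 (2.05 ± 0.09), the glycerol-3-phosphate acyltransferase GPAT3 (1.96 ± 0.07), the hyaluronan-degrading CEMIP (1.92 ± 0.06), the RAS exchange factor SOS1 (1.84 ± 0.07) and the kinase scaffold AKAP12 (1.76 ± 0.06). SOS1 showed a spread at the low dose, with 161, 122 and 123 CPM at 20 µg/mL, its first library being the high one.

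Among the 12 steepest falls were 3 metallothioneins, described below, and several hepatocyte genes. KNG1, the precursor of bradykinin, had 1.44, 1.29 and 1.46 CPM at 500 µg/mL, against 6.50, 6.02 and 6.34 CPM at 20 µg/mL (-2.16 ± 0.11). NR1H4, the bile acid receptor FXR, had 18.7, 17.1 and 16.5 CPM at 500 µg/mL, against 56.3, 61.2 and 60.4 CPM at 20 µg/mL (-1.76 ± 0.06, adjusted p = 1.4e-28). HAMP, the iron hormone hepcidin, had 20.2, 22.2 and 19.9 CPM at 500 µg/mL, against 66.6, 74.9 and 66.9 CPM at 20 µg/mL (-1.74 ± 0.12). Each library at 500 µg/mL was below each at 20 µg/mL, as for 22.6% of all tested genes in the downward direction. ACSM2A and ACSM2B are neighbours on chromosome 16 (chr16:20451461-20487667 and chr16:20536226-20576427) and encode near-identical mitochondrial medium-chain acyl-CoA synthetases. Their changes were -2.07 ± 0.14 and -2.01 ± 0.09, and the division of reads between the copies is uncertain. GSTA2, a glutathione transferase with a near copy in GSTA1, changed by -1.84 ± 0.13, the junction protein TJP3 by -1.77 ± 0.14, KANK4 by -1.62 ± 0.07 and the betaine transporter SLC6A12 by -1.59 ± 0.12.

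**Figure D1:**
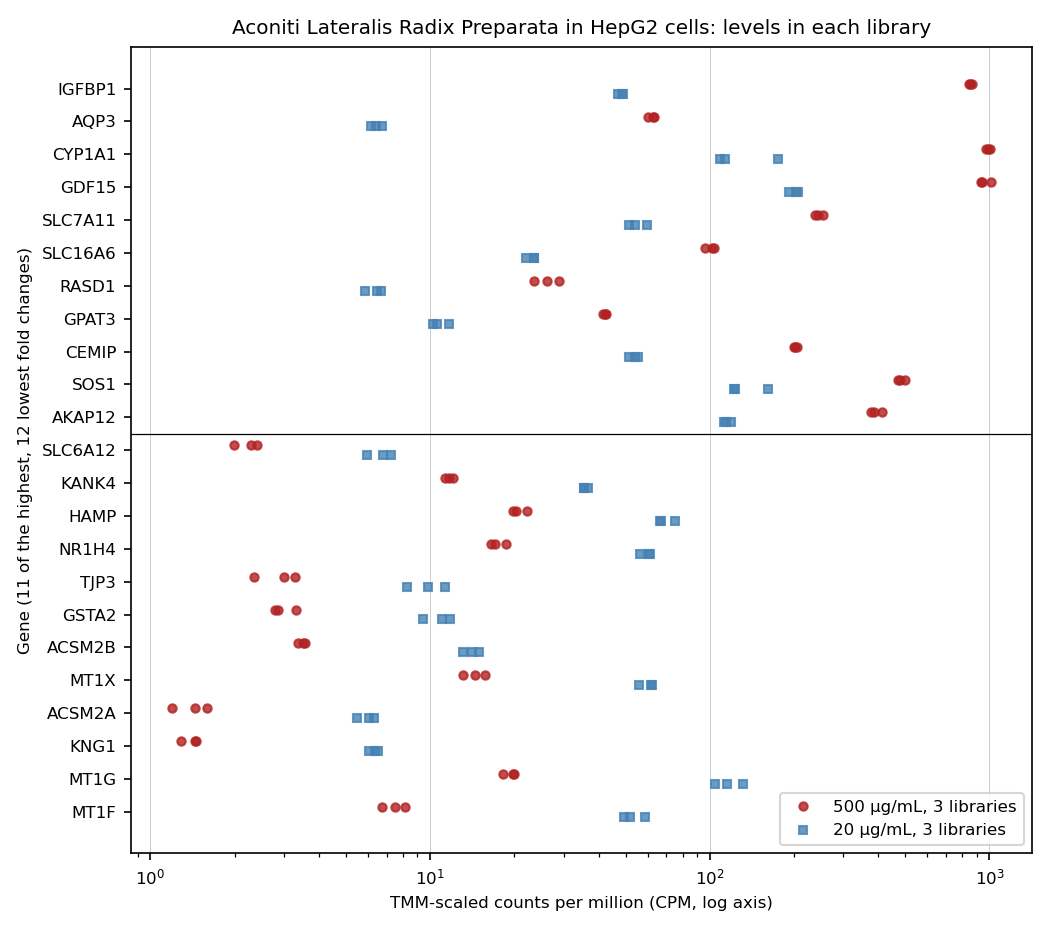
TMM-scaled CPM (log axis) of 11 of the 12 genes with the highest and of the 12 with the lowest fold change, 1 point per library, 500 µg/mL in red circles and 20 µg/mL in blue squares. In each of the 23 genes the 3 libraries at 500 µg/mL lie apart from the 3 at 20 µg/mL, as the choice of these genes required; IGFBP1 lies farthest apart among the rises, at 846 to 869 CPM against 47.0 to 48.8 CPM.

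Targets of AhR were higher at the high dose. Of 11 tested genes of the pathway 7 rose (63.6%) and 1 fell (9.09%), with a median of 0.47. Over all tested genes 19.2% rose and 18.1% fell. CYP1A1 had 972, 990.0 and 1004 CPM at 500 µg/mL, against 176, 113 and 108 CPM at 20 µg/mL, a change of 2.91 ± 0.09 (adjusted p = 1.7e-30). The 3 libraries at 500 µg/mL were nearly level, while the first at 20 µg/mL stood above the other two. AHRR, the repressor that AhR itself induces, had 8.08, 8.49 and 8.06 CPM at 500 µg/mL, against 1.69, 0.961 and 0.534 CPM at 20 µg/mL (2.98 ± 0.19), again with the first library highest at the low dose. ALDH3A1, an aldehyde dehydrogenase, rose by 1.32 ± 0.19 and NQO1, a quinone reductase that both AhR and NRF2 control, by 0.93 ± 0.05. The receptor gene AHR rose by 0.47 ± 0.05, and its partner ARNT fell by 0.16 on the log2 scale. TIPARP, another target, had a change of 0.01 ± 0.06 and was not called; its sign turned with single libraries left out. Other drug-metabolising P450 genes moved both ways, 6 of 13 up and 4 down: CYP2S1 rose by 1.14 ± 0.11 and CYP2J2 by 0.97 ± 0.11, while the fatty acid hydroxylase CYP4F2 had -0.97 ± 0.16. Among ABC exporters 6 of 12 rose and 3 fell, led by the bile canalicular pump ABCC2, with 860.0, 900.1 and 908 CPM at 500 µg/mL, against 409.8, 376 and 376 CPM at 20 µg/mL (1.20 ± 0.05), and by ABCG2 (0.84 ± 0.06).

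The CYP1A1 promoter window shows the letters of a xenobiotic response element, the DNA core that AhR with ARNT recognises. Windows are RefSeq promoters of GRCh38.p14, 250 bases before to 50 after a transcription start, printed 5′ to 3′ on the gene's strand, with the matched letters in capitals. A gene with several starts has several windows, and the window shown for a gene is the first listed that holds the match, so the match in it is no finding. The core GCGTG was searched on both strands. It occurred in 10 of the 16 windows, of 11 genes, of the AhR list (62.5%) and in 36.5% of all 35116 windows. In the window of CYP1A1 (chr15:74725479-74725778, minus strand) it begins at base -57.
CYP1A1: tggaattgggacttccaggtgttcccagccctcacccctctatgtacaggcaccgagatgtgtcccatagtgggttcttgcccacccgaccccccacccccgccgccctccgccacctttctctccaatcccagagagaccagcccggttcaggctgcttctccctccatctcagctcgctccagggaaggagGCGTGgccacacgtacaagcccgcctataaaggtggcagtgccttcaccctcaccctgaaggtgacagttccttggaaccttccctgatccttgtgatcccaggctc

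NRF2 targets rose nearly as a block. Of 30 tested genes of the regulators and targets 27 rose and 1 fell, with a median of 0.55, against 19.2% of all tested genes that rose. SLC7A11, the exchanger that brings in cystine for glutathione, had 243, 253 and 237 CPM at 500 µg/mL, against 59.4, 54.0 and 51.6 CPM at 20 µg/mL (2.15 ± 0.07). AKR1B10, an aldo-keto reductase with close relatives in the same family, had 352, 361 and 348 CPM at 500 µg/mL, against 108, 106 and 104 CPM at 20 µg/mL (1.74 ± 0.05). The subunits of glutamate-cysteine ligase, the first enzyme of glutathione synthesis, rose by 1.20 ± 0.04 (GCLC) and 1.16 ± 0.04 (GCLM). Each of these genes separated the doses without overlap, as did 24.6% of all tested genes in the upward direction. SRXN1, which repairs peroxiredoxins, rose by 1.04 ± 0.04 and thioredoxin reductase TXNRD1 by 0.96 ± 0.03. The ferritin chains FTL and FTH1, which store iron, rose by 0.52 ± 0.08 and 0.53 ± 0.06. NFE2L2, the gene of NRF2 itself, was among the 2 members not called (-0.07 ± 0.04), but was called lower with the GC trend removed (adjusted p = 0.0198). The core of the antioxidant response element, which NRF2 binds, was searched as TGACNNNGC on both strands of the same windows and occurred in 9 of 30 windows, of 23 genes, of this list (30%) and in 13.3% of all windows.

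Genes of the ATF4 response rose as well, 23 of 27 tested genes, with 1 that fell and a median of 0.53. Over all tested genes 19.2% rose and 18.1% fell. ASNS, asparagine synthetase, had 106, 112 and 102 CPM at 500 µg/mL, against 39.6, 37.2 and 39.4 CPM at 20 µg/mL (1.46 ± 0.06, adjusted p = 6.3e-27). The 20 µg/mL libraries lay below the vehicle libraries here, which had 49.2, 47.9 and 49.5 CPM. VLDLR, a lipoprotein receptor, rose by 1.92 ± 0.16, the mTOR inhibitor DDIT4 by 1.28 ± 0.09, the transcription factor ATF3 by 1.24 ± 0.12 and the phosphatase subunit PPP1R15A, which reverses eIF2 phosphorylation, by 1.16 ± 0.10. DDIT3 (CHOP), a factor linked to cell death under endoplasmic reticulum stress, had 11, 11.6 and 11.6 CPM at 500 µg/mL, against 9.75, 12.1 and 10.0 CPM at 20 µg/mL, with overlapping doses and no call (0.10 ± 0.10). Of 20 cytosolic aminoacyl-tRNA synthetases, which load tRNAs with amino acids, 15 rose and none fell, with a median of 0.24. GARS1, for glycine, had 234, 228 and 228 CPM at 500 µg/mL, against 145, 147 and 144 CPM at 20 µg/mL (0.66 ± 0.04). CARS1, for cysteine, rose by 0.62 ± 0.05 and MARS1, for methionine, by 0.52 ± 0.04. In serine and one-carbon metabolism 9 of 23 genes rose and 8 fell: the mitochondrial folate enzymes ALDH1L2 and MTHFD2 rose by 1.57 ± 0.10 and 0.87 ± 0.05, the cystathionine-cleaving CTH rose by 0.95 ± 0.08, and the nucleotide-synthesis enzyme TYMS fell, with -0.41 ± 0.05.

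The composite element TGATGNAA, to which ATF4 binds with a C/EBP partner, was searched on both strands of the promoter windows. It occurred in 7 of 21 windows, of 16 genes, of the tRNA synthetases (33.3%), in 10 of 44 windows, of 26 genes, of the ATF4 list (22.7%) and in 3 of 25 windows, of 15 genes, of the serine and one-carbon list (12%), against 3.62% of all windows. Windows of 1 gene can overlap and the ATF4 and synthetase lists share a pathway, so the shares are a description. ASNS and GARS1 are shown because both rose and hold it. In ASNS (chr7:97872359-97872658, minus strand) it begins at base -68. In GARS1 (chr7:30594628-30594927, plus strand) the match is on the opposite strand and begins at base -33.
ASNS: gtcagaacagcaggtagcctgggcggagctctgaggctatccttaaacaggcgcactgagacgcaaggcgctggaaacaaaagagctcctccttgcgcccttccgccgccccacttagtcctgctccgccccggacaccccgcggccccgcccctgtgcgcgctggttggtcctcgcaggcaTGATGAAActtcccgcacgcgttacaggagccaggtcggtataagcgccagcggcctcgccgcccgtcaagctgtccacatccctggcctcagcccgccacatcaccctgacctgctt
GARS1: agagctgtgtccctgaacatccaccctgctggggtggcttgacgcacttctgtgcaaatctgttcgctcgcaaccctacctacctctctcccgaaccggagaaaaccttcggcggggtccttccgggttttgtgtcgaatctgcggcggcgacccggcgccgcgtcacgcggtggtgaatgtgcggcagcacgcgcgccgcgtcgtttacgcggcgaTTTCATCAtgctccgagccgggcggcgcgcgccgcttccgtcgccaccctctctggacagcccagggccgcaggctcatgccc

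Chaperone genes of the endoplasmic reticulum were called at shares near those of all tested genes, of which 19.2% rose and 18.1% fell. Of 23 endoplasmic reticulum chaperones and disulphide enzymes 5 rose (21.7%) and 6 fell (26.1%), with a median of 0.02: the oxidase ERO1A rose by 0.55 ± 0.05, and SDF2L1, a co-chaperone, had -0.51 ± 0.09. Of 21 heat shock proteins 1 rose (4.76%) and 8 fell (38.1%). HSP90AA1, an HSP90 isoform, had 1767, 1766 and 1763 CPM at 500 µg/mL, against 2267, 2197 and 2186 CPM at 20 µg/mL (-0.33 ± 0.04). The exception upward was DNAJB4, with 0.52 ± 0.08.

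Metallothioneins, small proteins that bind zinc and copper and whose genes zinc induces through the factor MTF1, were much lower at the high dose, with 1 abundant exception. MT1F had 7.50, 8.16 and 6.74 CPM at 500 µg/mL, against 51.8, 58.8 and 49.5 CPM at 20 µg/mL (-2.84 ± 0.11, adjusted p = 1.9e-26). MT1G had 19.8, 18.3 and 19.9 CPM at 500 µg/mL, against 116, 131 and 105 CPM at 20 µg/mL (-2.60 ± 0.13), and MT1X had 15.7, 14.5 and 13.1 CPM at 500 µg/mL, against 56.0, 61.6 and 61.9 CPM at 20 µg/mL (-2.05 ± 0.12). In these 3 genes each library at 500 µg/mL lay far below each at 20 µg/mL. Over all tested genes 22.6% had no overlap in the downward direction. MT1E fell to 82.9 ± 4.29 CPM at 500 µg/mL, against 229 ± 24.3 CPM at 20 µg/mL (SD, n = 3 each; -1.47 ± 0.11). MT2A had 395, 402 and 374 CPM at 500 µg/mL, against 392, 454 and 392 CPM at 20 µg/mL, overlapping ranges and no call (-0.08 ± 0.12, adjusted p = 0.66). MT1A, at under 3 CPM in every library, was not called either (-0.09 ± 0.13). The genes stand in a row on chromosome 16, with MT2A at chr16:56608199-56609497, MT1E at chr16:56625475-56627112, MT1A at chr16:56638666-56640087, MT1F at chr16:56657694-56660698, MT1G at chr16:56666731-56668065 and MT1X at chr16:56682424-56684196 in GRCh38. Their transcripts are alike, so the assignment of reads between them is uncertain. The zinc exporter SLC30A1, another MTF1 target, had 81.3, 86.5 and 74.5 CPM at 500 µg/mL, against 118, 115 and 116 CPM at 20 µg/mL (-0.53 ± 0.05). The zinc importers SLC39A10 and SLC39A4 rose by 1.42 ± 0.07 and 0.62 ± 0.07. MTF1 itself had 0.08 ± 0.07 and was not called. In all, 9 of 15 tested genes of metallothioneins and zinc handling fell and 2 rose, with a median of -0.46, where 18.1% of all tested genes fell and 19.2% rose.

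MT1X and MT2A are shown because their changes differed while both windows carry the core letters of the metal response element bound by MTF1. The core was searched as TGCNCNC on both strands. It occurred in 9 of 13 windows, of 8 genes, of the zinc list (69.2%) and in 55.9% of all windows. The window of MT1X (chr16:56682220-56682519, plus strand) holds 4 matches, beginning at bases -150, -122, -78 and -53. The window of MT2A (chr16:56608334-56608633, plus strand) holds 8.
MT1X: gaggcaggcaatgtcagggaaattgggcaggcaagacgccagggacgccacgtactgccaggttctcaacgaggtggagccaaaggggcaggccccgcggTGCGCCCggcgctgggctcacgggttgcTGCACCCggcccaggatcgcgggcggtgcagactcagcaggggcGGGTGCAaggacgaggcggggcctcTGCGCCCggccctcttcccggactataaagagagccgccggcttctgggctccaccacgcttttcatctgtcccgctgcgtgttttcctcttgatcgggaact
MT2A: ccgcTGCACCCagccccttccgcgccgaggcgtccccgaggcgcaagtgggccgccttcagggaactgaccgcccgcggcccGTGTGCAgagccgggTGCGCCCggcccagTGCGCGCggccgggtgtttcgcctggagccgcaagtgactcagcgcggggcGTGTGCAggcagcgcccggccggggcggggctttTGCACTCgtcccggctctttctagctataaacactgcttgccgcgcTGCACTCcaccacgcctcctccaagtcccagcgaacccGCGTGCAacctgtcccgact

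Genes of iron handling and BMP-SMAD targets, counted as 1 list, fell more often than they rose, 13 of 22 (59.1%) against 6 (27.3%). Over all tested genes 18.1% fell and 19.2% rose. Beside HAMP, the protease TMPRSS6, which restrains hepcidin, had -0.80 ± 0.13, and the BMP-induced inhibitors SMAD6 and SMAD7 had -0.51 ± 0.08 and -0.53 ± 0.06. Transferrin (TF) had -0.38 ± 0.03. The copper oxidase CP, ceruloplasmin, rose, with 128, 128 and 118 CPM at 500 µg/mL, against 68.4, 65.2 and 63.2 CPM at 20 µg/mL (0.92 ± 0.06).

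Growth factor signalling genes were higher at 500 µg/mL. Of 24 tested genes of the ERK feedback list 18 rose and 2 fell, with a median of 0.65. Of 22 immediate early genes 16 rose and 1 fell, with a median of 0.94. Over all tested genes 19.2% rose and 18.1% fell. EGR1, an early-response transcription factor, had 43.0, 37.2 and 43.4 CPM at 500 µg/mL, against 12.6, 13.2 and 11.3 CPM at 20 µg/mL (1.74 ± 0.07). DUSP6, a phosphatase that turns ERK off, had 144, 139 and 141 CPM at 500 µg/mL, against 52.4, 56.2 and 57 CPM at 20 µg/mL (1.35 ± 0.04). Both genes were separate between doses, as were 24.6% of all tested genes in the upward direction. The EGF receptor ligands HBEGF and AREG rose by 1.84 ± 0.16 and 1.47 ± 0.10, the cytokine LIF by 1.57 ± 0.09 and the RAS inhibitor SPRY4 by 1.26 ± 0.05. BTG2, an antiproliferative gene of the early list, had -0.33 ± 0.06. CCN1, a matrix protein of the YAP and TGF-beta list, rose by 1.68 ± 0.07, and 10 of 19 tested genes of that list rose while 4 fell. SMAD7, a TGF-beta target as well as a BMP target, was among those that fell.

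Genes of glucose use and of the hypoxia response rose together. Over all tested genes 19.2% rose and 18.1% fell. Of 26 tested glycolysis and glucose transport genes 18 rose and 2 fell (median 0.29), and of 23 hypoxia response genes 19 rose and 2 fell (median 0.50). The glucose transporter SLC2A1 had 1294, 1309.5 and 1347 CPM at 500 µg/mL, against 574, 605 and 610.4 CPM at 20 µg/mL (1.14 ± 0.03). NDRG1, of the hypoxia list, rose by 1.13 ± 0.07, the repressor BHLHE40 by 1.29 ± 0.09 and the phosphofructokinase PFKP by 1.13 ± 0.10. Liver pyruvate kinase PKLR had -0.43 ± 0.08, and ANGPTL4, an inhibitor of lipoprotein lipase on the same hypoxia list, fell to 0.389, 0.286 and 0.501 CPM at 500 µg/mL, against 1.21, 1.07 and 1.64 CPM at 20 µg/mL (-1.73 ± 0.30). Of 20 genes that insulin represses through FOXO1, or that serve gluconeogenesis, 13 rose and 3 fell (median 0.28): beside IGFBP1, DEPP1 rose by 1.09 ± 0.06 and the glucose-6-phosphatase gene G6PC1 by 0.75 ± 0.17, while PCK1, the cytosolic PEPCK, was not called (-0.19 ± 0.13).

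**Figure D2:**
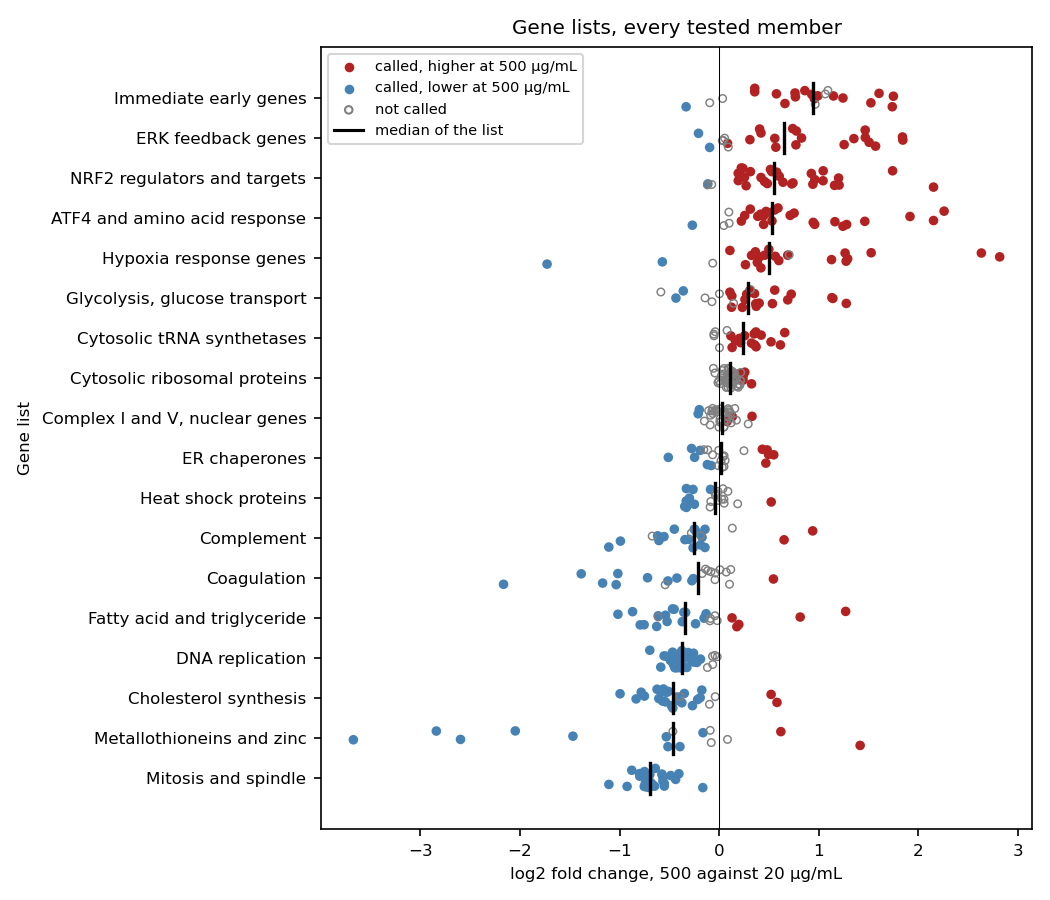
Log2 fold change of 500 against 20 µg/mL for every tested member of 18 gene lists, 1 point per gene, red where the gene was called and higher at 500 µg/mL, blue where called and lower, open where not called; the bar is the median of the list. Medians run from 0.94 for immediate early genes to -0.69 for mitosis genes, and ribosomal protein and complex I and V genes lie near 0.

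Cell division genes were lower at 500 µg/mL without exception among the mitotic list: all 30 of 30 mitosis and spindle genes fell, with a median of -0.69, against 18.1% of all tested genes. PLK1, a kinase that drives mitosis, had 186, 169 and 176 CPM at 500 µg/mL, against 319, 326 and 331 CPM at 20 µg/mL (-0.88 ± 0.05). The motor protein KIF20A had 40.1, 39.3 and 37.8 CPM at 500 µg/mL, against 83.8, 83.8 and 84.8 CPM at 20 µg/mL (-1.11 ± 0.04), and MKI67, the proliferation marker Ki-67, had 236, 234 and 243 CPM at 500 µg/mL, against 418, 385 and 397 CPM at 20 µg/mL (-0.75 ± 0.10). In these genes the spread within a dose was small beside the gap. PLK1 at 20 µg/mL stood above the vehicle libraries, which had 259, 245 and 268 CPM. Of 37 DNA replication genes 32 fell, none rose, and the median was smaller at -0.37; MCM2, of the replicative helicase, had -0.70 ± 0.05 and MCM5 -0.55 ± 0.05. The replication genes E2F1 and RRM2 were not called (-0.04 ± 0.05 and -0.07 ± 0.03). Of 30 ribosome biogenesis factors 8 rose and 3 fell (36.7% called, against 37.2% of all tested genes). Of 52 cytosolic ribosomal proteins 6 rose and none fell, a lower share than that of all tested genes (11.5% called). In bulk RNA fewer cells of a kind and less RNA per cell cannot be told apart.

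Promoters of many mitotic genes carry the cell cycle gene homology region (CHR), searched here as TTTGAA on both strands. It occurred in 21 of 31 windows of the mitosis list (67.7%), in 1 of 42 windows of the replication list (2.38%) and in 15.2% of all windows. The PLK1 window (chr16:23678639-23678938, plus strand) is shown, with the match beginning at base -29.
PLK1: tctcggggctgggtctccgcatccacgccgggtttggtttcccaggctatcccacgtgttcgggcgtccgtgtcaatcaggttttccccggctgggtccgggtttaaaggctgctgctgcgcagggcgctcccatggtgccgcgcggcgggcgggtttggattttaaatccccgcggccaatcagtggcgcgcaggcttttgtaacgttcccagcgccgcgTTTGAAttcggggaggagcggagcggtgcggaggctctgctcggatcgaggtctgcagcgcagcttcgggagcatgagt

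Fibrinogen and most complement genes were lower at the high dose, and the other plasma protein lists fell more often than they rose. Over all tested genes 18.1% fell and 19.2% rose. Of 15 tested plasma carriers and hormone binders 10 fell (66.7%) and 2 rose (13.3%), with a median of -0.20. FGA, FGB and FGG encode the chains of fibrinogen and lie together on chromosome 4 (chr4:154562956-154571086, chr4:154583126-154590766 and chr4:154604134-154612967 in order FGB, FGA, FGG). FGA had 318, 323 and 302 CPM at 500 µg/mL, against 829.9, 834 and 797 CPM at 20 µg/mL (-1.38 ± 0.03), and FGB and FGG changed alike, by -1.03 ± 0.04 and -1.17 ± 0.05. Haptoglobin, HP, had 62.4, 63.6 and 59.7 CPM at 500 µg/mL, against 178, 183 and 175 CPM at 20 µg/mL (-1.53 ± 0.05), with a near copy in HPR. It is the lowest member of the list of acute phase and haem-binding proteins, of which 9 of 19 fell and 5 rose, with a median of -0.10. Of 24 apolipoprotein and lipoprotein assembly genes 9 fell (37.5%), 5 rose (20.8%, near the share of all tested genes) and 10 were not called, with a median of -0.14. Of 22 coagulation genes 10 fell and 1 rose, TFPI, the tissue factor pathway inhibitor (0.55 ± 0.05), and of 22 complement genes 16 fell and 2 rose. C8A, of the membrane attack complex, had -1.11 ± 0.10, while MASP1, a protease of the lectin pathway, rose by 0.94 ± 0.08. The abundant products ALB and AFP moved little, with -0.16 ± 0.05 and -0.20 ± 0.04. The calls of ALB (adjusted p = 0.00505) and of HNF4A, a master regulator of hepatocytes (adjusted p = 0.00796), depended on single libraries. ALB was not called without the third library at 500 µg/mL (adjusted p = 0.0692). HNF4A was not called without the first at 20 µg/mL (0.0696) or the second at 500 µg/mL (0.0797). APOB, the core protein of very low density lipoprotein, was not called (-0.16 ± 0.10), but was with fewer libraries in the fit (adjusted p = 0.00426 with only the compared libraries). Of 27 hepatocyte transcription factors 12 fell and 8 rose. Beside NR1H4, CEBPA fell to 65.3, 59.8 and 75.2 CPM at 500 µg/mL, against 126, 169 and 177 CPM at 20 µg/mL (-1.24 ± 0.10). ONECUT1 and FOXA1 had -1.03 ± 0.16 and -0.86 ± 0.04, whereas the change of HNF4A was only -0.14 ± 0.04. NR0B2 (SHP), a repressor that FXR induces, rose by 0.60 ± 0.06.

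Genes of lipid synthesis were mostly lower. Over all tested genes 18.1% fell and 19.2% rose. Of 27 genes of cholesterol synthesis and its SREBP2 control 22 fell and 2 rose, with a median of -0.47. HMGCS1, an early enzyme of the mevalonate pathway, had 267, 265 and 239 CPM at 500 µg/mL, against 415, 398 and 376 CPM at 20 µg/mL (-0.62 ± 0.06), and MVK, mevalonate kinase, had -0.83 ± 0.04. INSIG2, which retains SREBPs in the endoplasmic reticulum, rose by 0.58 ± 0.07. Of 26 genes of fatty acid and triglyceride synthesis 16 fell and 5 rose. The triglyceride-forming DGAT1 and DGAT2 had -1.02 ± 0.05 and -0.87 ± 0.05 and the desaturase FADS2 -0.79 ± 0.04. The lipid droplet coat PLIN2 rose to 262, 264 and 262 CPM at 500 µg/mL, against 109, 111 and 106 CPM at 20 µg/mL (1.27 ± 0.04). The acyltransferase GPAT3, which is not in this list, went the other way, among the 12 highest changes described above. Among acyl-CoA synthetases 11 of 19 fell and 2 rose, ACSM3 with -0.96 ± 0.05. Of 17 bile acid genes 10 fell and 3 rose; AKR1D1, a reductase of bile acid synthesis, had -1.17 ± 0.08. PPARA targets moved both ways, with 8 of 27 up (29.6%) and 7 down (25.9%), and a median of -0.05.

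Ribosomal RNA encoded by mitochondrial DNA rose steeply while most messages of the same genome did not. MT-RNR1, the small-subunit rRNA, had 47374, 47853 and 46849 CPM at 500 µg/mL, against 7198, 6925 and 6719.7 CPM at 20 µg/mL (2.77 ± 0.06, adjusted p = 1.1e-35). MT-RNR2, the large-subunit rRNA, had 94785, 88895 and 91181 CPM at 500 µg/mL, against 25662, 24616 and 24344 CPM at 20 µg/mL (1.88 ± 0.07). These 2 genes took 12.8, 12.4 and 12.4% of all counts at 500 µg/mL, against 3.29, 3.16 and 3.14% at 20 µg/mL, and 2.29 to 2.54% in vehicle libraries. Of the 13 protein genes of mitochondrial DNA, which encode subunits of the respiratory chain, 6 fell and 1 rose, with a median of -0.29. MT-ND4, of complex I, had 5746, 5889.9 and 5877 CPM at 500 µg/mL, against 11831, 10768 and 9984 CPM at 20 µg/mL (-0.90 ± 0.14), and the adjoining MT-ND4L had -0.73 ± 0.09. MT-ND5 rose, with 5149.6, 4742 and 5481 CPM at 500 µg/mL, against 3912, 3365 and 3073 CPM at 20 µg/mL (0.57 ± 0.10). MT-ND1, MT-ND2 and MT-CYB were not called (0.20 ± 0.19, 0.16 ± 0.15 and 0.15 ± 0.11). Of 36 nuclear genes of complex I and V subunits 3 rose and 2 fell (13.9% called, against 37.2% of all tested genes; median 0.03). Of 31 factors of mitochondrial transcription and RNA turnover 8 rose and 5 fell (41.9% called; median 0.09). The RNA exonuclease REXO2 led these with 0.52 ± 0.06, and the RNA polymerase POLRMT was not called (0.09 ± 0.07). The libraries were made as mRNA libraries, and the part of RNA quality or of RNA selection in the rRNA share was not tested.

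**Figure D3:**
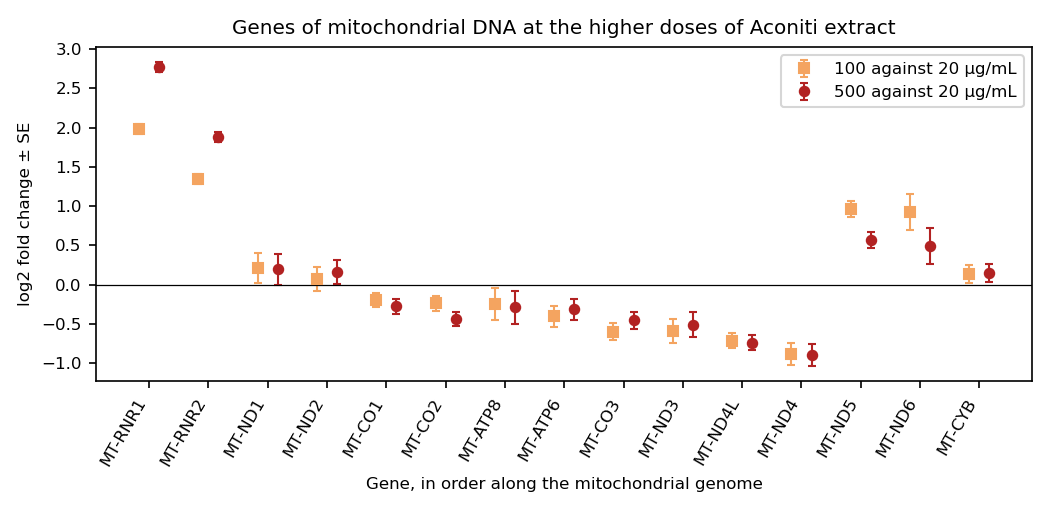
Log2 fold change with its SE (n = 3 libraries a dose) for the 15 measured genes of mitochondrial DNA, in their order along the genome, at 100 against 20 µg/mL (squares) and at 500 against 20 µg/mL (circles). Both rRNAs lie far above 0 at each dose, the genes from MT-CO1 to MT-ND4 lie below 0, and MT-ND5 lies above 0.

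More genes differed between 500 and 100 µg/mL than between 100 and 20 µg/mL. At 100 against 20 µg/mL 914 genes were called (5.68%), 501 up (3.11%) and 413 down (2.57%), and at 500 against 100 µg/mL 4947 (30.7%), 2527 up and 2420 down; both share libraries with the comparison of 500 against 20 µg/mL. The lowest dose already differed widely from vehicle: 5028 genes were called at 20 µg/mL against vehicle (31.2%), 6041 at 100 µg/mL (37.5%) and 7629 at 500 µg/mL (47.4%). These 3 counts share the vehicle libraries, whose label codes differ from those of the Aconiti libraries, so treatment and set cannot be told apart in them. All titles in the series carry the same label, BatchB, and they do not say what the code numbers stand for. The count at 100 µg/mL depended on single libraries: it was 589 or 582 without the second or the third library at 100 µg/mL, and 591 or 598 without the second or the third at 20 µg/mL. Among 188 called genes of at least 2-fold change and 5 CPM, a median of 23.3% of the log2 change was already present at 100 µg/mL, and 178 had under 50%. IGFBP1 averaged 48.1 CPM at 20, 84.9 CPM at 100 and 856 CPM at 500 µg/mL. HAMP averaged 69.5, 63.7 and 20.8 CPM at the same doses. Mitosis genes behaved likewise, with 6 of 30 called lower at 100 µg/mL and a median of -0.09. The 10 genes with 50% or more of their change at 100 µg/mL, named after their values were seen where no rule named them, were CYP1A1, MT-RNR1, MT-RNR2, AKR1B10, GCLM, SRXN1, RGMB, ZACN, DGKG and SCN1A. CYP1A1 averaged 12.6 CPM in vehicle, 132 CPM at 20, 510.4 CPM at 100 and 989 CPM at 500 µg/mL. MT-RNR1 reached 1.98 of its 2.77 log2 units at 100 µg/mL. MT-ND4 had -0.88 ± 0.14 at 100 µg/mL and -0.90 ± 0.14 at 500 µg/mL, both relative to 20 µg/mL. MT-ND5 was higher at 100 than at 500 µg/mL, averaging 3450.0, 6739.7 and 5124 CPM at 20, 100 and 500 µg/mL. Of the 30 NRF2 genes 24 were already called higher at 100 µg/mL, against 11 of 27 ATF4 genes and 7 of 20 tRNA synthetases. Ribosome biogenesis factors were called higher more often at 100 than at 500 µg/mL. At 100 µg/mL 15 of 30 were higher and none lower (median 0.15). At 500 µg/mL 8 were higher and 3 lower (median 0.005). Of 21 heat shock proteins 7 were higher and none lower at 100 µg/mL, but 1 was higher and 8 lower at 500 µg/mL. The differences between those lists were not tested.

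**Figure D4:**
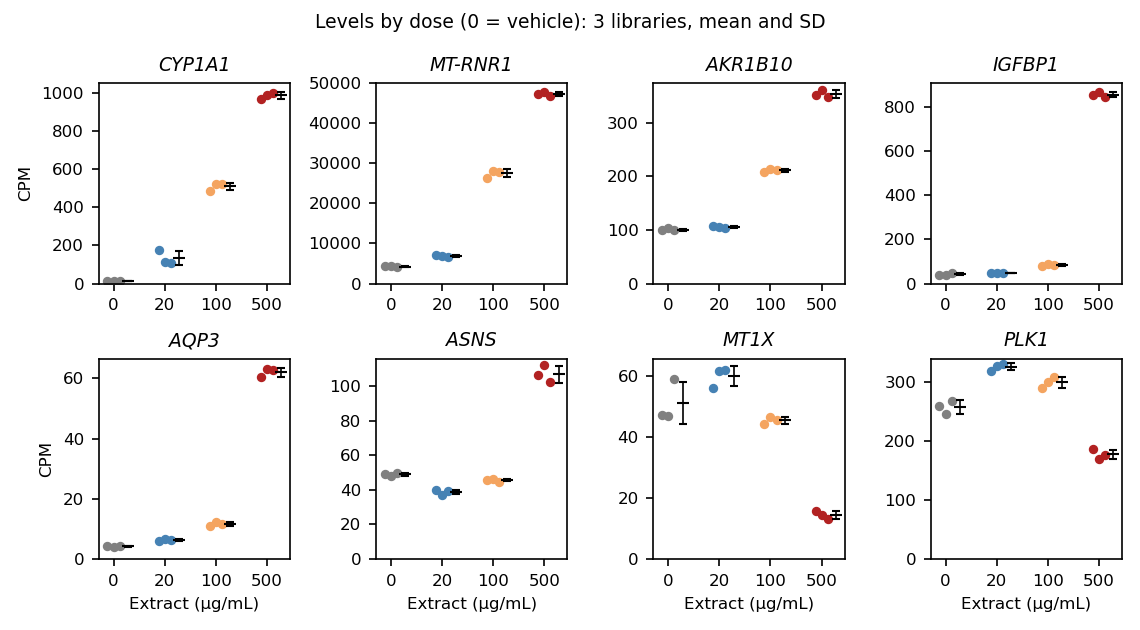
Levels (CPM, linear axis from 0) of 8 genes at 0 (vehicle), 20, 100 and 500 µg/mL of Aconiti extract, with 3 libraries a dose as points and the mean with its SD beside them. CYP1A1, MT-RNR1 and AKR1B10 are already raised at 100 µg/mL, while IGFBP1, AQP3, ASNS, MT1X and PLK1 change mainly between 100 and 500 µg/mL.

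Whether the dose response is shared with other extracts was tested by interaction, the Aconiti change of 500 against 20 µg/mL minus the same change in Cimicifugae Rhizoma, or in Bupleuri Radix, whose libraries it does not share. The Aconiti response differed from that of Cimicifugae Rhizoma at 1001 genes (6.22%), 536 higher and 465 lower, and from that of Bupleuri Radix at 1636 genes (10.2%), 835 higher and 801 lower. Bupleuri libraries carry the same leading number in their labels as Aconiti libraries, and Cimicifugae libraries another, so for Cimicifugae the extract and the set cannot be told apart.

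The mitochondrial rRNAs stood apart from both. MT-RNR1 changed by 2.77 ± 0.06 with Aconiti, 0.57 ± 0.06 with Cimicifugae and 0.71 ± 0.06 with Bupleuri extract (differences 2.20 ± 0.08 and 2.06 ± 0.08). SLC16A6 changed by 2.13 ± 0.06 with Aconiti, against 0.95 ± 0.07 and 0.04 ± 0.07. AQP3 differed from Bupleuri by 2.27 ± 0.11 and IGFBP1 by 1.98 ± 0.13. Neither AQP3 nor IGFBP1 was among the 5 highest called differences from Cimicifugae, of which the lowest was ID3 at 1.38. Fibrinogen and some acyl-CoA synthetases fell further with Aconiti: FGA had -1.38 ± 0.03 with Aconiti, -0.44 ± 0.03 with Cimicifugae and -0.05 ± 0.03 with Bupleuri. ACSM3 went in opposite directions, with -0.96 ± 0.05 for Aconiti, 0.78 ± 0.04 for Cimicifugae and 0.60 ± 0.04 for Bupleuri. The BMP-responsive genes HAMP and ID1, an inhibitor of differentiation factors, fell less with Aconiti. HAMP had -1.74 ± 0.12 with Aconiti, against -4.85 ± 0.19 with Cimicifugae and -3.49 ± 0.15 with Bupleuri, and ID1 had -0.36 ± 0.08, against -2.32 ± 0.09 and -1.24 ± 0.09. CYP1A1 rose less than with Cimicifugae (2.91 ± 0.09 against 4.85 ± 0.10), from a low-dose level of 132 CPM with Aconiti and 19.8 CPM with Cimicifugae, and to 989 and 569.8 CPM at 500 µg/mL.

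Whole lists also differed. Of 27 ATF4 genes the dose effect of Aconiti was higher than that of Cimicifugae at 17 and lower at none, and higher than that of Bupleuri at 22 and lower at 1; of all tested genes 3.33% and 5.19% were higher, and 2.89% and 4.98% lower. ASNS showed it, with 1.46 ± 0.06 for Aconiti, 0.52 ± 0.06 for Cimicifugae and 0.02 ± 0.06 for Bupleuri. DDIT4 changed by 1.28 ± 0.09 with Aconiti, against -0.01 ± 0.09 and 0.10 ± 0.09. The tRNA synthetases were higher at 12 of 20 against each of the 2 extracts. Of the 30 NRF2 genes 12 were higher than with Cimicifugae and 20 than with Bupleuri, and none lower. Cholesterol genes separated Aconiti from Cimicifugae, with 19 of 27 lower and none higher, but less from Bupleuri, with 5 lower and 1 higher. Mitosis genes did the reverse: against Bupleuri 29 of 30 were lower, and against Cimicifugae 3 were higher and none lower. Among metallothioneins, MT1F fell in the 3 extracts (-2.84 ± 0.11, -3.18 ± 0.13 and -2.86 ± 0.11 for Aconiti, Cimicifugae and Bupleuri), and the differences of 0.34 ± 0.19 and 0.02 ± 0.17 were not called. MT2A had -0.08 ± 0.12 with Aconiti, against -1.29 ± 0.13 with Bupleuri, a called difference of 1.21 ± 0.17. Nuclear complex I and V genes and cytosolic ribosomal proteins gave no called difference against either extract.

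**Figure D5:**
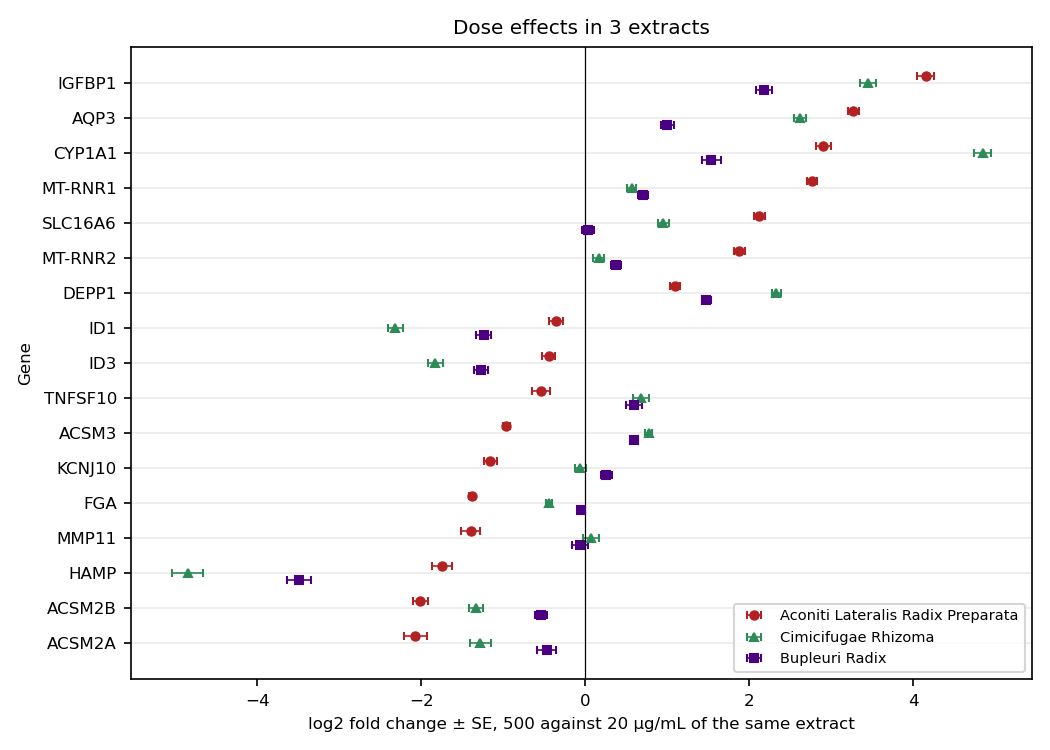
Log2 fold change of 500 against 20 µg/mL, with its SE, for the 17 genes with the largest called differences between extracts: Aconiti (circles), Cimicifugae Rhizoma (triangles) and Bupleuri Radix (squares), 3 libraries a dose. The MT-RNR1 and MT-RNR2 points of Aconiti lie above those of the other 2 extracts, and HAMP, ID1 and ID3 of Aconiti lie nearer to 0.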

How the data were processed

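RNA of HepG2 cells was read as mRNA libraries made with a directional kit and sequenced as paired ends, per the labels' protocols. The submitters' processing notes name FastQC 0.11.9, Trim Galore 0.6.5, STAR 2.7.3a, RSEM 1.3.3 and GRCh38, with the annotation release not given in the sources used here. The deposited table holds the authors' RSEM expected counts, estimates that divide reads among alike transcripts, of 60675 genes. Another 207 columns of that table belong to no sample here and were not used. Whether strand was used in counting is not stated, so overlapping and antisense genes may share reads.

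Expected counts were rounded and fitted with edgeR 4.0.16 (R 4.3.3, limma 3.58.1) in 1 quasi-likelihood model of 57 libraries with a mean for each of 19 groups; Bojungikgi-tang, with 1 library a dose, was left out. Genes were kept by filterByExpr, libraries scaled by TMM, and p-values adjusted by Benjamini-Hochberg over 16093 genes. SE was derived from the fold change and its F statistic. The common biological coefficient of variation was 4.86%. The model was tested on simulated data. Alternatives included DESeq2 1.42.0, other scalings and filters, a replicate block and leaving out each library.

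The members and the 49 gene lists were chosen with earlier results of these data known, so a list's direction is no independent evidence. Named genes are the 12 highest and 12 lowest called protein-coding genes with a mean of 5 CPM or more and no overlap of libraries; from each list up to 8 called members by size of change and up to 4 uncalled members by level, at 1 CPM or more; the 5 highest and 5 lowest of each interaction; both mitochondrial rRNAs; and the 10 most abundant genes. The text may name fewer, and says where a gene was chosen after its values were seen; a few named by the rule are not reported here. Symbols come from a gene name table, places from GENCODE 29 on GRCh38, and promoter windows from RefSeq on GRCh38.p14. The series description names 2% DMSO where the sample labels give 0.1%.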

Additional observations from a re-analysis of the deposited data

Results flagged for a closer look

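These genes were singled out because the test of the difference itself, the interaction of extract and dose, was called, and they are the 5 highest and 5 lowest of their comparison among genes of 5 CPM or more. All values are differences of log2 fold changes of 500 against 20 µg/mL. Against Cimicifugae Rhizoma the dose effect of Aconiti was higher by 3.10 for HAMP, 2.20 for MT-RNR1, 1.96 for ID1, 1.72 for MT-RNR2 and 1.38 for ID3. It was lower, with differences of -1.94 for CYP1A1, -1.74 for ACSM3, -1.46 for the matrix metalloproteinase MMP11, -1.24 for DEPP1 and -1.22 for the death ligand TNFSF10. Against Bupleuri Radix it was higher by 2.27 for AQP3, 2.09 for SLC16A6, 2.06 for MT-RNR1, 1.98 for IGFBP1 and 1.74 for HAMP, and lower, with -1.60 for ACSM2A, -1.56 for ACSM3, -1.47 for ACSM2B, -1.42 for the potassium channel KCNJ10 and -1.34 for FGA. At 20 µg/mL CYP1A1 averaged 132 CPM with Aconiti and 19.8 CPM with Cimicifugae. What sets these genes apart was not tested.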

How the results depend on the processing

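The count of genes called at 500 against 20 µg/mL, 5989, ranged from 5575 to 6351 over the other settings (median-ratio size factors, library totals without the mitochondrial rRNAs, other filters, DESeq2, fewer libraries in the fit, removal of a GC trend) and from 5218 to 5508 when any 1 library was left out. The count at 100 against 20 µg/mL, 914, went from 582 to 717 with a library left out, 701 with only the compared libraries and 1197 without the GC trend. For 500 against 100 µg/mL the ranges were 4576 to 5325 and 4212 to 4575, for the difference from Cimicifugae 901 to 1233 and 751 to 934, for that from Bupleuri 1413 to 2003 and 1338 to 1534, and for called list genes, 651, 635 to 669 and 599 to 620. In no setting did the balance of higher and lower calls shift by 10 points. Numbers are shared by replicates of different doses. Same-numbered deviations correlated at 0.12, 0.08 and 0.17, and the other pairs at -0.14 to 0.05. Each library correlated best with its own number, so a weak pairing by number is possible, and the main fit leaves it out. With a replicate block 6144 genes were called at 500 against 20 µg/mL and 982 at 100 against 20 µg/mL. At 500 against 100 µg/mL the block gave 5103, with 1083 and 1728 for the differences and 664 list genes. Of 2710 values of named genes under these settings 2682 kept their direction and side of the threshold, 10 lost a call (ALB, HNF4A and PER1), 10 gained one (APOB, MT-CYB, MT-ND1, MT-ND2, NFE2L2, POLRMT and RRM2) and 8 changed sign. The gains came without a filter on low counts for APOB (adjusted p = 0.00145), MT-CYB (0.0102), MT-ND1 (0.000263) and MT-ND2 (0.00374), with only the compared libraries for APOB (0.00426) and MT-CYB (0.0294), with vehicle and Aconiti libraries only for APOB (0.0046), and without the GC trend for NFE2L2 (0.0198), POLRMT (0.0117) and RRM2 (0.0064). The changes of sign were in results near 0 that were never called, and the cause was not tested: TIPARP was -0.02 without the GC trend and -0.0345 to 0.0543 with a library left out, MT1A -0.175 to 0.0319, and the MT1F difference from Bupleuri -0.0865 to 0.111.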

Other observations

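Further gene lists were counted at 500 against 20 µg/mL of Aconiti extract, beside 19.2% of all tested genes that rose and 18.1% that fell. Of 17 tested clock genes 10 fell and 3 rose, with a median of -0.23. The PAR bZIP factors, outputs of the clock that drive liver metabolism, led the falls: DBP had 2.10, 1.15 and 1.82 CPM at 500 µg/mL, against 4.24, 5.28 and 5.56 CPM at 20 µg/mL (-1.56 ± 0.19), and TEF had -0.82 ± 0.08. PER2 and PER3, repressors in the clock loop, had -0.33 ± 0.08 and -0.44 ± 0.09. Their relative PER1 had -0.40 ± 0.16, a call that was lost whichever of the 6 libraries was left out. CLOCK was not called (0.09 ± 0.07). Of 33 autophagy and lysosome genes 17 rose and 2 fell. SQSTM1, the cargo receptor p62 and also an NRF2 target, had 699, 720.0 and 724 CPM at 500 µg/mL, against 271, 288 and 281 CPM at 20 µg/mL (1.35 ± 0.03). The ATG8 relative GABARAPL1 rose by 0.97 ± 0.08, and the master regulator TFEB had -0.69 ± 0.10.

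Targets of p53 moved in both directions, 10 of 25 up and 9 down. CDKN1A, the cell cycle inhibitor p21, rose by 0.94 ± 0.04, and FDXR had -0.41 ± 0.07. Of 18 WNT targets 9 fell and 5 rose, the WNT inhibitors DKK4 and DKK1 with -1.42 ± 0.31 and -0.66 ± 0.06. Of 17 genes of MHC class I presentation 4 fell (23.5%) and 2 rose (11.8%), in all 35.3% against 37.2% of all tested genes, so the list does not stand out; its immunoproteasome subunits PSMB9 and PSMB8 had -0.70 ± 0.17 and -0.44 ± 0.07. Genes of inflammatory signalling numbered 19, with 9 higher and 4 lower: the chemokine CCL20 had 64.3, 66.3 and 59.4 CPM at 500 µg/mL, against 24.8, 24.7 and 24.5 CPM at 20 µg/mL (1.36 ± 0.08), and the receptor IL6R rose by 1.24 ± 0.04. Of 28 genes of nitrogen and amino acid breakdown 10 rose and 10 fell, GPT, alanine aminotransferase, with -1.10 ± 0.16.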
